A study of Mus musculus with 60 samples.

Results

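The genes described here are 9 genes used as markers of dentate granule cells, the excitatory neurons of the dentate gyrus: Prox1, Neurod1, Calb1, Dsp, C1ql2, Stxbp6, Tdo2, Dock10 and Plk5. Their members are the peaks to which the deposited annotation gave one of these symbols, 387 of the 256375 peaks in 12 peak lists, of which 155 were H4K8ac peaks and 232 were H3K27me3 peaks. All 9 genes had at least 1 peak, among 16994 symbols in the lists. The lists came from CUT&RUN-seq, in which an antibody guides a nuclease to cut out the chromatin that carries a mark, in hippocampal nuclei of Emx1-NuTRAP mice that were exercised or sedentary from postnatal day 21 to 41.

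All animals were male, carried an Emx1-driven Cre that switches on a nuclear tag, and were housed with a running wheel (exercised) or without one (sedentary). Nuclei were taken either from both hippocampi together with RNA (simultaneous INTACT and TRAP, SIT, labelled with 4 samples per group) or from the left or the right hippocampus alone (left separate and right separate, 3 samples per group). By the methods, 3 exercised H4K8ac libraries of the separate arms and 1 of SIT had been left out for a high peak FDR, and a list may rest on fewer libraries than are labelled. Each mark, condition and arm had 1 pooled list, so there is no spread between samples and no test in what follows, and the depth behind a list is unknown. The lists differed widely in length, from 12168 to 38136 peaks for H4K8ac and from 9899 to 25693 peaks for H3K27me3, and the exercised lists were the longer ones in SIT and the shorter ones in the right arm for both marks.

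Emx1 is active in the lineage of pyramidal neurons as well as of granule cells, so granule cell chromatin was only a fraction of what the lists sampled. Excitatory neuron genes carried H4K8ac: it was listed at 2 to 3 of the 3 excitatory genes Slc17a7, Camk2a and Neurod6 in each list, and H3K27me3 was listed at none of them in any list. Of the interneuron genes Gad1, Gad2 and Slc32a1, 2 of 3 had H3K27me3 at a promoter in each list, and H4K8ac was listed at Gad1 alone, in 2 lists. Genes of glia were not free of H4K8ac: 1 to 3 of 3 astrocyte genes, 1 to 3 of 3 oligodendrocyte genes and 1 to 2 of 3 microglia genes were listed, depending on the list. The 3 oligodendrocyte genes, like the excitatory ones, had no H3K27me3 in any list, while 2 of 3 astrocyte genes had it in all 6 lists and 1 microglia gene in some. Their part in the results was not tested.

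H4K8ac, acetylation of lysine 8 of histone H4, is found at promoters and enhancers of active genes. H3K27me3, trimethylation of lysine 27 of histone H3, is laid down by the Polycomb repressive complex 2 and covers silenced developmental genes, often in wide domains that start at CpG-rich promoters. Prox1 is a homeobox transcription factor that granule cells need to form and to keep their identity, and that mature pyramidal neurons largely lack. Neurod1 is a basic helix-loop-helix factor that drives the differentiation and survival of newborn granule neurons. Calb1 encodes the calcium buffer calbindin, a marker of mature granule cells, and the other genes encode a desmosome protein (Dsp), a secreted synaptic C1q-like protein (C1ql2), a SNARE-binding protein (Stxbp6), the first enzyme of tryptophan breakdown (Tdo2), a guanine nucleotide exchange factor (Dock10) and a Polo-like kinase (Plk5).

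The promoter sequences below show what lay under the marks at 5 of these genes. They are the 250 bases before the RefSeq start site (GRCm38.p6), written 5′ to 3′ on the strand of the gene, with CpG dinucleotides in capitals. H3K27me3 peaks touched the promoters of Prox1, C1ql2 and Dsp in 4, 4 and 5 of 6 lists, H4K8ac peaks covered that of Neurod1 whole in 6 of 6 lists, and H4K8ac peaks touched that of Tdo2 in 2 of 6.
Prox1 promoter (chr1:190170828-190171077, minus strand): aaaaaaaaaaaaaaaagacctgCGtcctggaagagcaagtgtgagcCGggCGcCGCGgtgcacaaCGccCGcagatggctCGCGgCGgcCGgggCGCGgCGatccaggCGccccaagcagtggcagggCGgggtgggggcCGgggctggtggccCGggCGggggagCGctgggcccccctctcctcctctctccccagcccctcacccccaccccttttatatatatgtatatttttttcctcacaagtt
C1ql2 promoter (chr1:120340332-120340581, plus strand): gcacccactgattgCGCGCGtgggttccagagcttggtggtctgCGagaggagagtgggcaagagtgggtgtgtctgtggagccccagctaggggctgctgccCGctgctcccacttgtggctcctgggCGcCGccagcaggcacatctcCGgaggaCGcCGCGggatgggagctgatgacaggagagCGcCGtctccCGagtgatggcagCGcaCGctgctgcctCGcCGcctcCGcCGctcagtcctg
Dsp promoter (chr13:38151044-38151293, plus strand): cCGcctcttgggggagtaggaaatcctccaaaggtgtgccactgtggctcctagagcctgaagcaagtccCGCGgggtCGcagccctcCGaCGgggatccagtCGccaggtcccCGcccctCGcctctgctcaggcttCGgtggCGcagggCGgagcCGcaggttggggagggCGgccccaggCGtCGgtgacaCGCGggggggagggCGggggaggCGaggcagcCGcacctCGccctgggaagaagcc
Neurod1 promoter (chr2:79456637-79456886, minus strand): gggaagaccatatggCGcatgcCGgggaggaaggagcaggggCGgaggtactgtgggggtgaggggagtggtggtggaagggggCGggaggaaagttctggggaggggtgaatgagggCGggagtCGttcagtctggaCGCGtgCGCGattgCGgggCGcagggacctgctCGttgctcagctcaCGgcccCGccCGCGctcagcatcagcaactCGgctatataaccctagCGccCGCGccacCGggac
Tdo2 promoter (chr3:81975729-81975978, minus strand): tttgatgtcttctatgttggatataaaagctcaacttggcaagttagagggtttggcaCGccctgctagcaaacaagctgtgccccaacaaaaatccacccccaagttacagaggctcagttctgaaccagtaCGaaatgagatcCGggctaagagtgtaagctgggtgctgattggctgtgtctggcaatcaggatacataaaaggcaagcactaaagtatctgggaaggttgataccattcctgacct

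CpG-rich promoters were found with either mark and with neither. Over 300 bases that run 50 bases past the start site, the first listed promoters of Prox1, C1ql2, Dsp and Neurod1 held 25, 23, 27 and 26 CpG dinucleotides, against a median of 7 over 32851 RefSeq promoters, and that of Tdo2 held 4. The first promoters of Dock10, Plk5 and Stxbp6, which carried no mark in most lists, held 32, 21 and 19. RefSeq had promoters for 8 of the 9 genes, with Calb1 unmatched. The E-box CAGATG (searched as CAGATG and CATCTG, which cover both strands) stood in the first promoters of Prox1 and Dock10, 2 of 8, and 17.2% of all promoters held it. A match describes letters only.

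Further sequences come from the distal H4K8ac region of each of 3 genes that was in most lists for that gene. They are 300 bases of GRCm38, plus strand, centred on the stretch that most H4K8ac lists shared, with any CAGATG or CATCTG in capitals. The Prox1 stretch was under H4K8ac and H3K27me3 in the same 2 SIT lists, the C1ql2 stretch was under H4K8ac in 4 lists, and the Calb1 stretch was under H4K8ac in 5. All 3 lie outside genes in the deposited annotation.
Prox1 upstream (chr1:190274819-190275118): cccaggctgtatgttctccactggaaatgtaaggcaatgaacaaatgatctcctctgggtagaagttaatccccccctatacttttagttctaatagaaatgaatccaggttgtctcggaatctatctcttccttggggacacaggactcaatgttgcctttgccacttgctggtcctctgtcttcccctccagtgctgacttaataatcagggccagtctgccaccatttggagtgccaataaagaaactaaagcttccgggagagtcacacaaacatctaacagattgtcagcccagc
C1ql2 upstream (chr1:120321602-120321901): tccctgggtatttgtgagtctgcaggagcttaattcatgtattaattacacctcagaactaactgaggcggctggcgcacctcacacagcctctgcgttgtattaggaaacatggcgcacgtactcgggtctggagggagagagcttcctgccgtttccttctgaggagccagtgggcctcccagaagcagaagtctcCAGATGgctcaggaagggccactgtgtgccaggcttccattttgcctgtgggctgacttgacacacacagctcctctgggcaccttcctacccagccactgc
Calb1 upstream (chr4:15594117-15594416): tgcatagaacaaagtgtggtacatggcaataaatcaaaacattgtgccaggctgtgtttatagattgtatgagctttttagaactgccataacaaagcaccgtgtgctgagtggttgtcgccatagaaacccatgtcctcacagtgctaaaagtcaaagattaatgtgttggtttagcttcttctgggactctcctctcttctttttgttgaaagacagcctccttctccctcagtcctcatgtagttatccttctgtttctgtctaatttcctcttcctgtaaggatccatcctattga

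Of these 3 windows, the one at C1ql2 held the E-box. Among 44211 windows of the same length centred on distal intergenic H4K8ac peaks, 25.2% held it.

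The 9 genes fell into 3 patterns. H4K8ac without any H3K27me3 was listed at Neurod1, Calb1, Tdo2 and Plk5, H3K27me3 without any H4K8ac at Dsp, and both marks at Prox1, C1ql2, Stxbp6 and Dock10. The counts stood beside those of all listed genes as follows: H4K8ac was listed in at least 1 list for 8 of 9 genes (79.9% of all symbols), H3K27me3 for 5 of 9 (43.5%), and both marks for 4 of 9 (23.5%). Neurod1, Calb1, Stxbp6 and Dock10 had H4K8ac in all 6 lists, 4 of 9 against 19.3% of all symbols, and Prox1, Dsp, C1ql2 and Stxbp6 had H3K27me3 in all 6, 4 of 9 against 16.5%. Those counts depended on which peaks counted: with promoter peaks only they were 1 for H4K8ac and 0 for H3K27me3, with at least 2 peaks per gene 0 and 2, the H4K8ac count was 2 with the widest 50% of each list, and the H3K27me3 count was 2 by position. No test was made, so nothing in these counts was shown to be particular to granule cell genes.

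**Figure D1:**
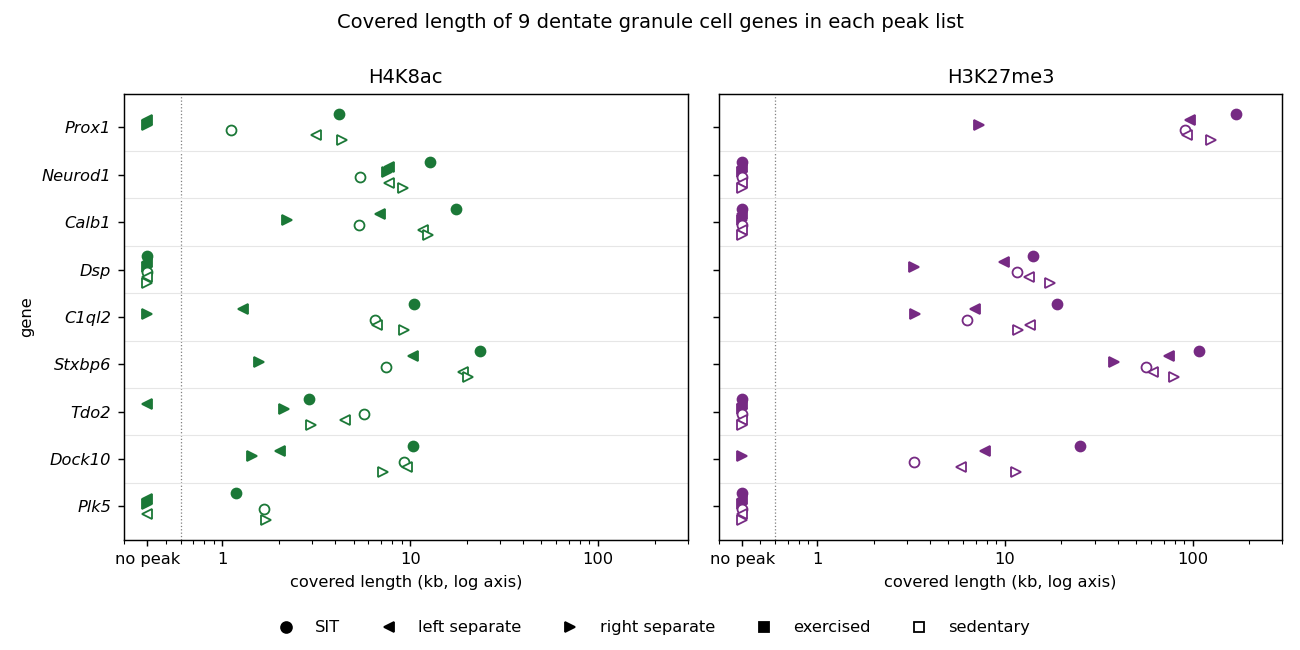
Covered length (kb, log axis) of each gene in each of the 12 lists, H4K8ac on the left and H3K27me3 on the right, with filled symbols for exercised and open symbols for sedentary lists, symbol shape for the arm, and lists without a peak left of the dotted line. Prox1 and Stxbp6 lie farthest right for H3K27me3, where Neurod1, Calb1, Tdo2 and Plk5 have no peak in any list.

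Prox1 (ENSMUSG00000010175, chr1:190118035-190170714 on the minus strand of GRCm38) was a Polycomb locus in these nuclei. It had 114 H3K27me3 peaks over the 6 lists and 10 H4K8ac peaks over 4, and by summed H3K27me3 length (584 kb) it ranked 134th of 7399 genes. The peaks lay on both sides of the gene and over it, between chr1:190051364 and chr1:190283348, a span of 232 kb. By class, 72 of the 114 were distal intergenic, 25 intronic and 4 at a promoter.

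The H3K27me3 peaks given to Prox1 covered 171 kb in exercised SIT, 97.1 kb in exercised left and 7.29 kb in exercised right. They covered 90.8 kb in sedentary SIT, 92.8 kb in sedentary left and 126 kb in sedentary right. The exercised right list was far below the other 5, with 3 peaks against 14 to 28, and the remaining exercised and sedentary values overlapped. That list was also the shortest. As a share of all bases it covered, Prox1 took 177 ppm, against 1050 to 1260 ppm in the other lists, and the part of list length in this was not tested.

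The symbol alone understated the domain at its centre. The antisense gene Prox1os (chr1:190170296-190217276, plus strand) starts inside Prox1, and the peak that covered the Prox1 start site was given to Prox1os in 4 lists. Those peaks included the widest at the locus: 31.1 kb in exercised SIT, 52.4 kb in sedentary SIT (chr1:190129742-190182173) and 46.8 kb in sedentary right. Counting every H3K27me3 peak whatever its symbol, 97.4% of the Prox1 gene was covered in exercised SIT, 63.9% in exercised left and 4.3% in exercised right, and 88.7%, 58.9% and 96.7% in sedentary SIT, sedentary left and sedentary right. In SIT the gene was mostly covered in both conditions, and in the right arm in the sedentary list alone.

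Where the 232 kb span was counted whole, H3K27me3 covered 87.6% of it in exercised SIT against 61.7% in sedentary SIT, 42.9% against 40% in left, and 3.14% against 74.3% in right. As shares of each list's covered bases, these were 1500 against 1980 ppm in SIT, 1080 against 1260 ppm in left and 177 against 1510 ppm in right. Of the 17 regions formed by merging Prox1 peaks over the 6 lists, 13 were listed in both conditions, 3 in exercised lists alone and 1 in a sedentary list alone. The regions present in 6 of 6 lists were chr1:190084079-190092684 downstream of the gene, chr1:190112690-190151933 over its 3′ part and chr1:190184295-190211547 upstream, within Prox1os. In exercised right each held 1 peak, of 1784 to 3241 bp.

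**Figure D2:**
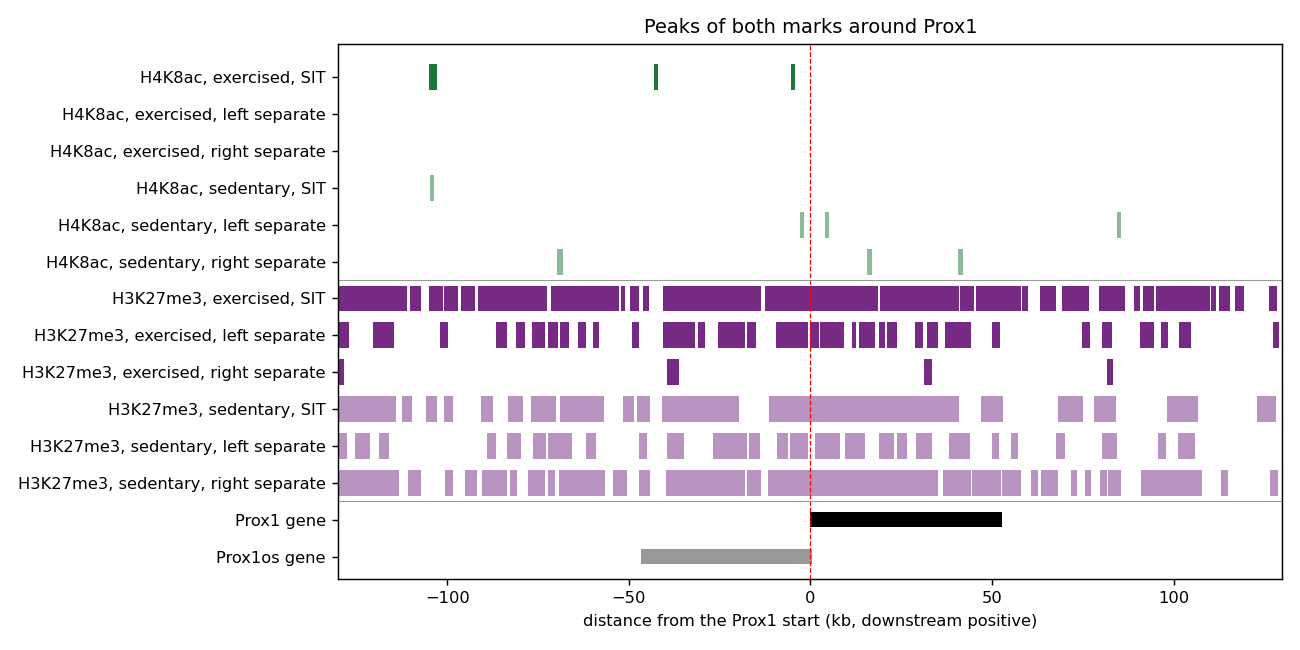
Peaks of both marks around Prox1 in each of the 12 lists, by distance from the Prox1 start (kb, downstream positive), with paler bars for sedentary lists and the Prox1 and Prox1os genes below. H3K27me3 covers 87.6% of the 232 kb span in exercised SIT, 74.3% in sedentary right and 61.7% in sedentary SIT, against 42.9% and 40% in the exercised and sedentary left lists, and is down to 3 peaks in exercised right, and the short H4K8ac peaks scatter through the same domain.

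H4K8ac at Prox1 was sparse, narrow and placed differently in almost every list. Exercised SIT had 3 peaks covering 4.19 kb, sedentary SIT 1 peak of 1.11 kb, sedentary left 3 peaks covering 3.17 kb and sedentary right 3 peaks covering 4.32 kb, and the exercised left and right lists had none. Widths ran from 903 to 2138 bp, and 8 of the 9 merged regions were listed once. The exception was the upstream region chr1:190273639-190275776, 104 kb from the start, found in both SIT lists. Peaks classed as promoter occurred in sedentary left alone, at chr1:190165534-190166701 and chr1:190172609-190173511, and no H4K8ac peak in any list covered the start site.

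These H4K8ac peaks sat inside the Polycomb domain. Of the 10, 9 shared bases with H3K27me3 listed for that condition in that arm, and 7 lay wholly inside one. Over all H4K8ac peaks in the lists, 0.378% overlapped H3K27me3 in this way, and apart from Prox1 the 8 other granule cell genes together had 1 such peak, at Stxbp6. Of the 13585 genes with an H4K8ac peak, 360 had an overlapping peak and 3 (Prox1, Runx1t1 and Mir124-2hg) had 9 or more, the last 2 named after their values were seen. As the nuclei of granule and pyramidal neurons were pooled, both marks on the same chromatin and each mark in different cells cannot be told apart. IgG was not analysed, so whether these H4K8ac calls stood above background was not tested.

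The study shows Prox1 as its example of a locus where the marks differ between conditions, so the gene was chosen on these samples and its listing is not independent evidence. The paper also names Prox1 among the genes that rose in its TRAP-seq and had new H4K8ac after exercise. Expression was not examined here. By the symbol, Prox1 was listed in both SIT lists and was in neither the gained nor the lost group. For H4K8ac, Prox1 counted as gained in SIT with distal intergenic peaks left out, with the widest 50% of each list, or with at least 2 peaks required, and not with promoter peaks only, by position or at equal numbers of peaks.

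The genes whose covered length over the 12 lists was most like that of Prox1, among 278 with both marks and at least 50% of its total length, were Efna5 (Pearson r = 0.995), Cdc42ep3 (0.993), Mthfs (0.991), Col8a1 (0.991) and Mcc (0.991). The coefficients describe the shared contrast of long H3K27me3 with short H4K8ac and the lengths of the lists. Over the 6 H3K27me3 lists alone they were 0.975 to 0.992.

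Neurod1 (ENSMUSG00000034701, chr2:79452521-79456751, minus strand) showed the opposite state. H4K8ac covered the gene and its start site in all 6 lists, and the nearest H3K27me3 in the matching list was 933681 bp away or farther. Covered length was 12.7, 7.68 and 7.5 kb in the exercised SIT, left and right lists and 5.38, 7.68 and 9.2 kb in sedentary SIT, sedentary left and sedentary right. By symbol, the exercised SIT value was the highest and the sedentary SIT value the lowest, an order that turned when peaks were assigned by position.

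In exercised SIT this was a single peak of 12746 bp (chr2:79449724-79462469), among the widest 0.149% of that list, which spanned the gene and its promoter. In sedentary SIT the same ground was split: a peak of 5378 bp over the gene, and upstream peaks of 856 and 2967 bp that the annotation gave to Cerkl, a neighbouring gene. Assigned by position to the gene and 3 kb before it, Neurod1 had 12.7 kb in exercised SIT and 9.2 kb in sedentary SIT, 10 and 10.1 kb in left, and 7.4 and 12.9 kb in right, so that sedentary right was highest and exercised right lowest. Of the 4.23 kb gene, 74.4 to 100% lay under H4K8ac in every list. By symbol, its exercised to sedentary ratio was 0.999 in left and 0.816 in right, where the whole lists stood at 0.391 and 0.437, and the right ratio was lower by position.

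Dsp (ENSMUSG00000054889, chr13:38151294-38198577, plus strand) carried the other mark. A wide H3K27me3 peak covered its start site in 5 of 6 lists, and no list had H4K8ac at the gene. H3K27me3 covered 14.2, 9.94 and 3.27 kb in the exercised SIT, left and right lists and 11.6, 13.4 and 17.4 kb in the sedentary ones. All 9 peaks merged into 1 region of 17377 bp (chr13:38143067-38160443), which was also the single peak of sedentary right. In exercised right, 2 intronic peaks of 1541 and 1734 bp were listed and the start site was bare.

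**Figure D3:**
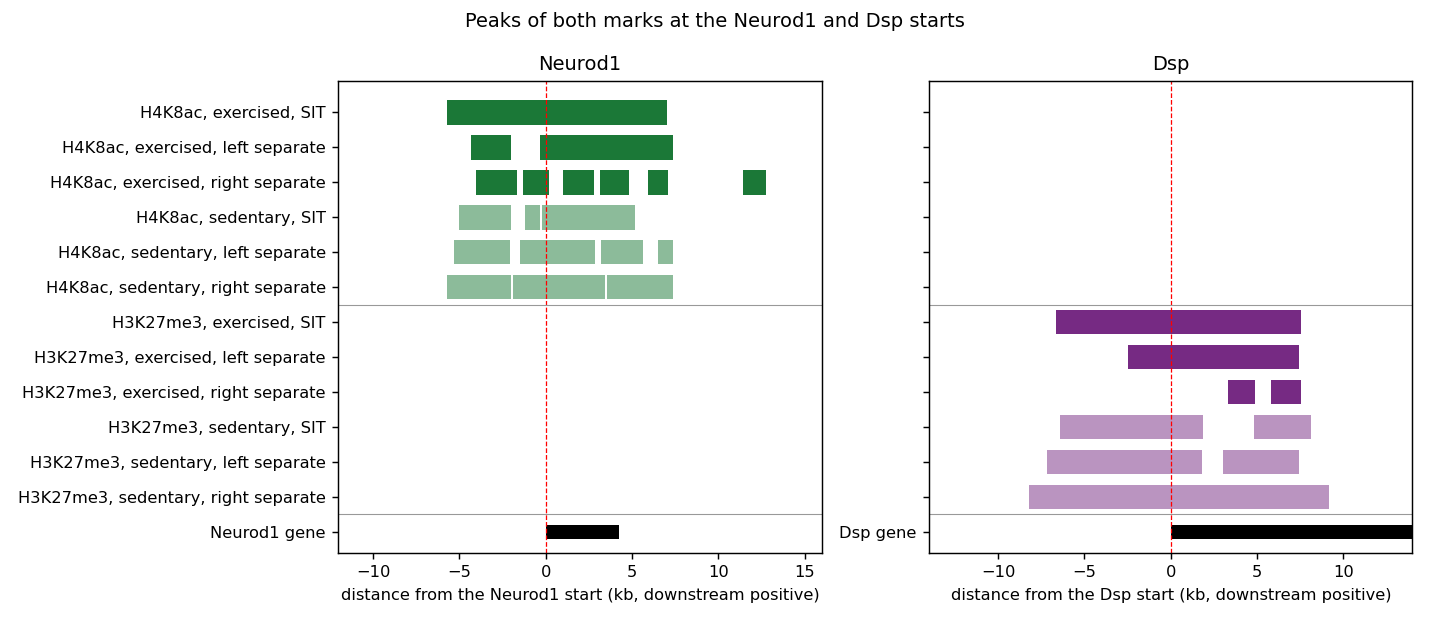
Peaks of both marks around the Neurod1 start (left) and the Dsp start (right) in each of the 12 lists, by distance from the start in kb, with paler bars for sedentary lists, the list order being the same in both panels. Neurod1 carries H4K8ac alone, as 1 peak in exercised SIT, and Dsp carries H3K27me3 alone, over the start site in all lists but exercised right.

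At C1ql2 (ENSMUSG00000036907, chr1:120340582-120343174, plus strand) the marks lay side by side. H3K27me3 lay over the gene and its promoter, H4K8ac lay upstream, and none of 15 H4K8ac and 20 H3K27me3 peaks overlapped the other mark in the same condition and arm. In exercised SIT the gap between them was 1423 bp, from the end of H4K8ac at chr1:120329898 to the start of H3K27me3 at chr1:120331321. All 15 H4K8ac peaks were distal intergenic, and all but 1 lay upstream, between chr1:120306774 and chr1:120329898. The exception, in sedentary left downstream of the gene (chr1:120356836-120358064), overlapped an H3K27me3 peak of exercised SIT (chr1:120357620-120359112).

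H4K8ac at C1ql2 covered 10.5 kb in exercised SIT, 1.28 kb in exercised left and 0 in exercised right, and 6.52, 6.63 and 9.29 kb in sedentary SIT, left and right. H3K27me3 covered 18.8, 6.92 and 3.34 kb in exercised SIT, left and right, and 6.27, 13.6 and 11.7 kb in the sedentary ones. The 2.59 kb gene was covered by H3K27me3 whole in exercised SIT, sedentary SIT and exercised left, by 60% in sedentary left and 83.8% in sedentary right, and not at all in exercised right. A further H3K27me3 region 51.5 kb downstream (chr1:120388855-120395290) was in 5 lists, exercised right among them and sedentary SIT the exception.

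**Figure D4:**
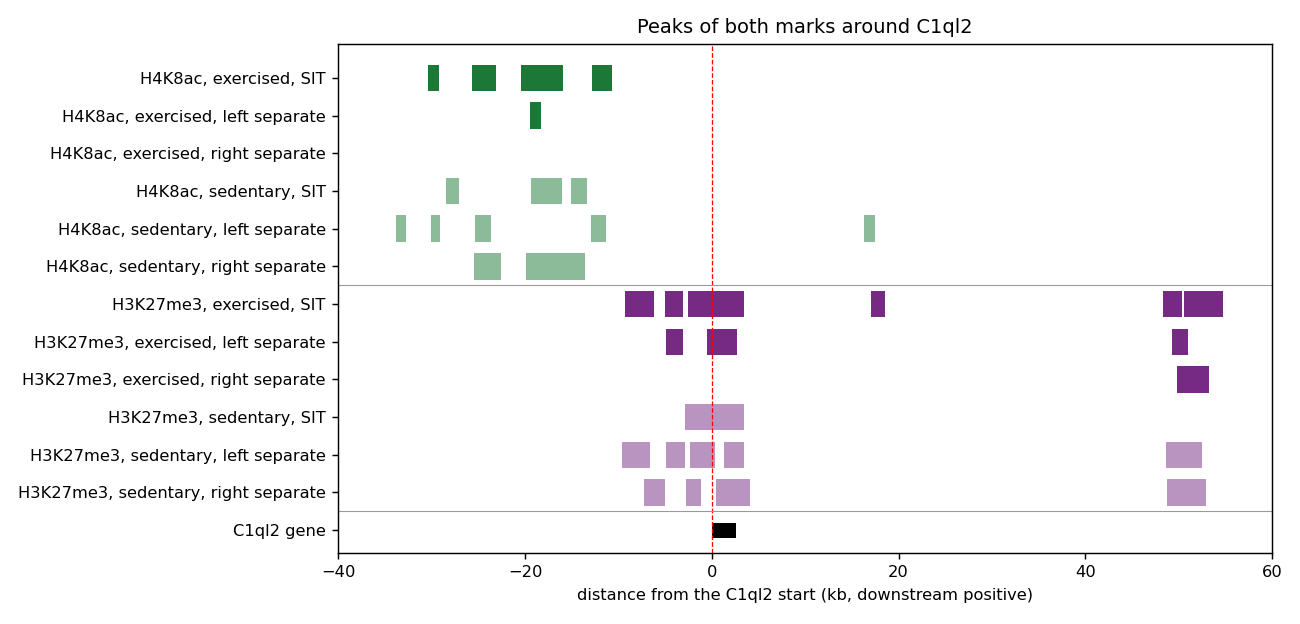
Peaks of both marks around C1ql2 in each of the 12 lists, by distance from its start (kb, downstream positive), with paler bars for sedentary lists. H4K8ac lies upstream of the H3K27me3 block that covers the gene, and the marks do not overlap within a condition and arm.

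Calb1 (ENSMUSG00000028222, chr4:15881264-15908064, plus strand) carried H4K8ac far from its promoter. Of 26 H4K8ac peaks, 24 were distal intergenic, all upstream, and they recurred at a few places: chr4:15592723-15599151 in 5 lists, chr4:15605101-15607893 and chr4:15766436-15771758 in 4 lists each, and 3 others in 3 lists each. The 4 peaks merged at chr4:15605101-15607893 had no base common to all 4. All of these recurring regions lay 90.2 to 285 kb from the start. Calb1 was the nearest protein-coding start to each of them, with pseudogenes and a microRNA gene nearer to them, so their link to Calb1 is by distance. The gene itself had H4K8ac in the left lists alone, 1 peak in sedentary and 1 in exercised.

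Covered H4K8ac length at Calb1 was 17.5, 6.92 and 2.22 kb in exercised SIT, left and right and 5.37, 11.7 and 12.5 kb in sedentary SIT, left and right. The condition with more was exercised in SIT and sedentary in left and right, as it was for the lists as a whole. In SIT the ratio of 3.26 was above the 1.73 of the whole lists, and 1.63% of 2330 genes with at least 5 kb in sedentary SIT had a ratio as high. The same share was 2.02% for Stxbp6, 10.9% for Neurod1, 43% for C1ql2, 77% for Dock10 and 96.8% for Tdo2. Calb1, at 5.37 kb, passed that minimum narrowly, and the minimum was chosen after the values were seen.

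Stxbp6 (ENSMUSG00000046314, chr12:44852484-45074709, minus strand) had scattered H4K8ac within the gene and most of its H3K27me3 upstream. Of 51 H4K8ac peaks 34 were intronic, in all 6 lists, and together H4K8ac covered 0.702 to 8.36% of the gene. The region chr12:45465774-45468065, upstream of the gene, was also listed with H4K8ac, in the 3 sedentary lists and no exercised list, 0.646 kb from the start of the lincRNA gene Gm33680 and 392 kb from that of Stxbp6, and the region chr12:45054001-45058060 was in 5. Of 72 H3K27me3 peaks, 15 lay in the gene or the 3 kb before it, in 4 lists, 39 were distal intergenic, and the longest lay far upstream. 3 blocks, 489 to 596 kb from the start, were listed in 6 of 6 lists, chr12:45555226-45572210, chr12:45577158-45615097 and chr12:45668445-45673590, and the middle one held single peaks of 37084 bp in sedentary right, 37005 bp in exercised left, 34640 bp in exercised SIT and 34580 bp in sedentary SIT. Stxbp6 was the nearest protein-coding start to these blocks, so their link to it is by distance.

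Covered H3K27me3 length at Stxbp6 was 108, 74.7 and 38.1 kb in exercised SIT, left and right and 56.3, 61.1 and 79.8 kb in sedentary SIT, left and right. Set beside Prox1, H3K27me3 at Stxbp6 was partly retained in exercised right, over 46.8% of the sedentary right bases against 3.88% at Prox1. It took 925 ppm of that short list's covered bases, against 697 to 828 ppm in the other lists. Its widest peak was 37084 bp in sedentary right and 13832 bp in exercised right. Among 549 genes with at least 50 kb of H3K27me3 in sedentary right, 2.55% had an exercised to sedentary ratio at or below the 0.0581 of Prox1, 70.9% had one at or below the 0.478 of Stxbp6, and the median was 0.361. The place of Prox1 rested on that minimum: among 3629 genes with at least 5 kb, 23.8% were at or below it. Both minimums were chosen after the values were seen. The start site of Stxbp6 itself carried H3K27me3 in exercised SIT and exercised left, and H4K8ac in sedentary right.

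H4K8ac at Stxbp6 covered 23.4, 10.4 and 1.56 kb in exercised SIT, left and right, and 7.41, 19 and 20.4 kb in sedentary SIT, left and right. The exercised right list had a single peak there, which shared no base with the 10 of sedentary right. In intron 1, exercised SIT had an H4K8ac peak (chr12:45041635-45044140) that overlapped an H3K27me3 peak (chr12:45041696-45044017) over 2322 bp. Within a condition and arm, that was the only overlap of the marks among these genes outside Prox1.

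Dock10 (ENSMUSG00000038608, chr1:80501073-80758527, minus strand) had the marks in different introns. H4K8ac recurred in intron 3 of 55, at chr1:80618456-80622266 in 5 lists and chr1:80629272-80631974 in 4, and upstream at chr1:80852922-80855180 in 4. In the first of these regions, the exercised SIT peak (chr1:80620279-80621610) shared no base with those of sedentary left and sedentary right. H3K27me3 lay nearer the start, in and around intron 1, most often at chr1:80708247-80720090, a region merged from peaks of 5 lists. The sedentary SIT peak there (chr1:80716820-80720090) shared no base with those of exercised SIT, exercised left and sedentary left. The nearest pair of opposite marks was 25757 bp apart.

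H4K8ac at Dock10 covered 10.3, 2.03 and 1.44 kb in exercised SIT, left and right, and 9.32, 9.64 and 7.2 kb in sedentary SIT, left and right. H3K27me3 covered 25 kb in exercised SIT, 7.83 kb in exercised left and 0 in exercised right, against 3.27, 5.86 and 11.5 kb in the sedentary lists. In SIT the 25 kb were 5 peaks and the 3.27 kb were 1 peak, and those shared no base. By symbol, the ratio of 7.64 was the largest among these genes for either mark. By position, exercised and sedentary SIT had 21.2 and 3.27 kb at Dock10 and 23.2 and 2.62 kb at Stxbp6, and the ratio at Stxbp6 was the larger.

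Tdo2 (ENSMUSG00000028011, chr3:81957090-81976202, minus strand) had H4K8ac within the gene, at chr3:81962442-81966235, in all lists but exercised left. The annotation called it a promoter because a shorter Tdo2 transcript starts there. Near the upstream start H4K8ac was listed in sedentary SIT and sedentary left alone, at chr3:81974470-81975819. Covered length was 2.9 kb in exercised SIT, 0 in exercised left and 2.14 kb in exercised right, and 5.7, 4.49 and 2.97 kb in the sedentary lists. Tdo2 and Plk5 were the genes with less H4K8ac in exercised than in sedentary SIT, although the exercised list was the longer.

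Plk5 (ENSMUSG00000035486, chr10:80356459-80365489, plus strand) had the weakest listing. A single H4K8ac region (chr10:80371336-80373359) was given to it in exercised SIT, sedentary SIT and sedentary right, with 1181, 1672 and 1708 bp. The region lies beyond the end of the gene, and the start of the antisense gene Gm15124 was nearer to it, at 0.393 kb. The nearest protein-coding start was that of Mex3d, at 15.3 kb, against 15.9 kb for Plk5. No peak of either mark overlapped Plk5 or the 3 kb before its start.

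The comparison of exercised with sedentary lists asked which genes had a mark in one list of an arm and not in the other. With every peak counted, no granule cell gene was listed in an exercised list alone, for either mark in any arm. In SIT 0 of 8 listed genes had gained H4K8ac (27.5% of all listed genes had) and 0 of 8 had lost it (10.1%), and for H3K27me3 0 of 5 had gained (41.4%) and 0 of 5 had lost (1.02%). In SIT the same granule cell genes were listed in both conditions, and the lists differed in how much of each was covered.

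In the separate arms a few H4K8ac listings were missing after exercise. In left, Prox1 and Tdo2 were lost, 2 of 7 (51.9% of all genes), and 0 of 7 were gained (3.58%). In right, Prox1, C1ql2 and Plk5 were lost, 3 of 8 (36.7%), and 0 of 8 were gained (9.14%). With the widest 50% of each list the counts were the same but the genes were not: C1ql2 and Tdo2 in left, and C1ql2, Dock10 and Stxbp6 in right, without Prox1. The share in left was below that of all genes and the share in right was near it. The exercised lists were the shorter ones in both arms. With the longer list of each arm reduced to the same number of peaks by width, 1 gene lost H4K8ac in left (Tdo2) and 1 gained it (C1ql2), 1 lost it in right (C1ql2), and Prox1 was lost in neither. Some exercised H4K8ac libraries had been left out by the study, whose part in these losses was not tested. For H3K27me3, 0 of 5 were gained (18.5%) and 0 of 5 lost (9.13%) in left, and in right 0 of 5 were gained (3.12%) and 1 of 5, Dock10, was lost (43.6%), which became 0 at equal numbers of peaks. That loss count was 3 with promoter peaks only or by position. It was 2 with distal intergenic peaks left out, with the widest 50% of each list, or with at least 2 peaks per gene.

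**Figure D5:**
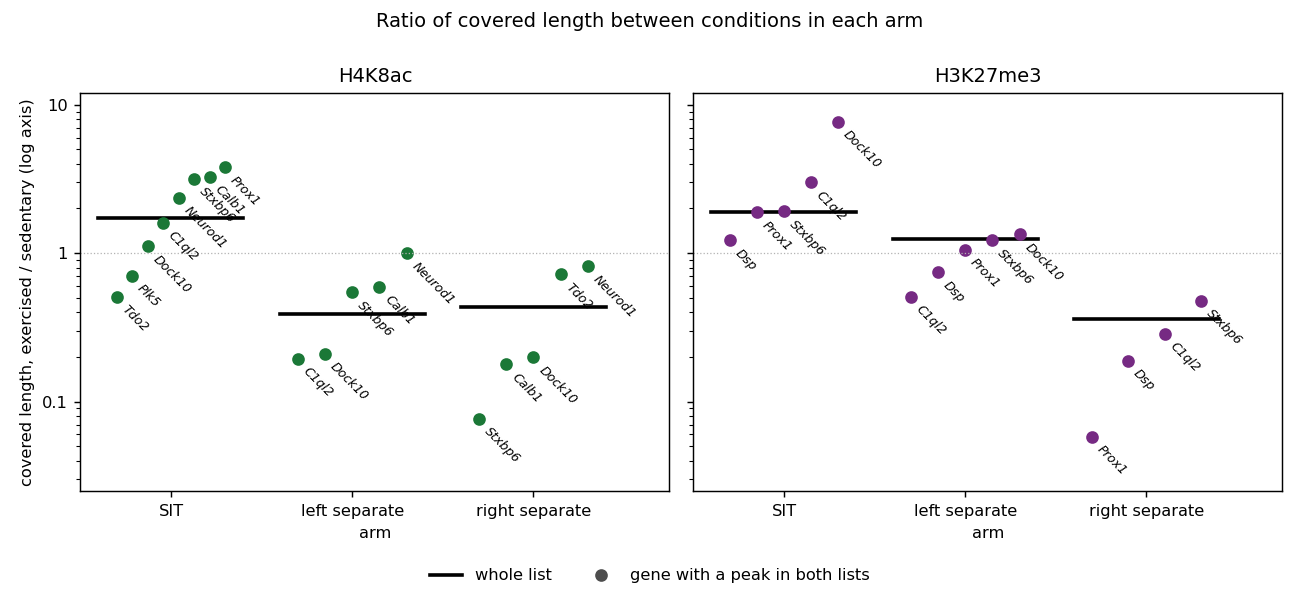
Ratio of covered length in the exercised to the sedentary list of each arm (log axis), for genes with a peak in both lists, with the ratio of the whole lists as a black bar. Prox1 is the lowest point for H3K27me3 in the right arm at 0.0581, against 0.36 for the whole lists, and Neurod1 is the highest for H4K8ac in both separate arms when peaks are taken by symbol. By position, Neurod1 was the highest in neither of these arms.

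By symbol, covered length in SIT changed in the same direction as the whole lists at most genes. The part of list length in this was not tested. In SIT, H4K8ac length by symbol was greater in the exercised list at Prox1 (ratio of exercised to sedentary 3.78), Calb1 (3.26), Stxbp6 (3.16), Neurod1 (2.37), C1ql2 (1.6) and Dock10 (1.11), and was lower at Plk5 (0.706) and Tdo2 (0.509), with 1.73 for the whole lists. The Prox1 ratio set 3 peaks against 1. By position, Prox1, Calb1, C1ql2 and Plk5 had no H4K8ac in either SIT list. Neurod1 then had 12.7 kb in exercised SIT and 9.2 kb in sedentary SIT. For H3K27me3 in SIT the ratios by symbol were 7.64 at Dock10, 3 at C1ql2, 1.92 at Stxbp6, 1.88 at Prox1 and 1.22 at Dsp, with 1.88 for the whole lists. In left they were 1.34, 0.508, 1.22, 1.05 and 0.741 in the same order, with 1.25 for the whole lists. With every H3K27me3 peak of the Prox1 span counted, exercised SIT covered 203 kb and sedentary SIT 143 kb. As shares of the lists these were 1500 and 1980 ppm, so the exercised share was the lower. By position, C1ql2 H3K27me3 covered 6.06 kb in exercised SIT and 6.27 kb in sedentary SIT.

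The positions shared between conditions depended on which list they were counted over, as the lists differed in length. For H3K27me3 at Prox1, 89% of the bases of sedentary SIT were covered in exercised SIT, and 67.9% of those of sedentary left in exercised left, but 3.88% of those of sedentary right in exercised right. Counted over the exercised bases, 47.4, 64.9 and 66.8% lay in the sedentary list of SIT, left and right, so what little exercised right held was mostly shared. For H3K27me3 at Stxbp6 the shares of sedentary bases were 91.4, 86 and 46.8%, and those of exercised bases 47.7, 70.4 and 98.1%. For H4K8ac at Neurod1 they were 100, 84.7 and 66% of sedentary and 42.2, 84.8 and 80.9% of exercised bases. At Calb1 they were 85.4, 32.6 and 11.5% of sedentary and 26.2, 55 and 64.9% of exercised bases. H4K8ac positions at C1ql2 in left, and at Stxbp6 and Dock10 in right, shared no base between conditions.

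Other genes of the granule cell and of its lineage carried the marks in the following way. All 8 of the further granule cell genes Lct, Rfx3, Glis3, Npnt, Trpc6, Pdzd2, Sema5a and Ahcyl2 had H4K8ac in at least 1 list and 4 in all 6, and 4 (Glis3, Pdzd2, Sema5a and Trpc6) also had H3K27me3. Among 7 genes of the neurogenic lineage, the intermediate progenitor factors Eomes and Neurog2 had H3K27me3 in all 6 lists and no H4K8ac, with summed lengths of 360 and 125 kb. Calb2, a marker of immature granule cells, had H3K27me3 in 4 lists and no H4K8ac. Neurod2 had H4K8ac in all 6 lists, Sox11 in 5 and Dcx in 4, all 3 without H3K27me3. Igfbpl1, another gene of immature granule cells, had both marks, H4K8ac in 2 lists and H3K27me3 in 4.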

How the data were processed

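CUT&RUN-seq of H4K8ac, H3K27me3 and IgG was labelled for 60 samples in 18 groups; groups followed antibody, condition and arm. IgG was not analysed here. Per the methods and the submitters' processing notes, the authors checked reads (FastQC 0.11.9), aligned them to mm10 (Bowtie2 2.4.1), called peaks with SEACR (stringent, 0.01), left out libraries with a peak FDR above 0.1, and annotated peaks with ChIPseeker 1.8.6 (promoter, 3 kb each side). The way of pooling libraries is not given in the sources used here. The deposited tables hold peak starts, ends, widths and distances in bp; they hold no counts or signal, so depth is unknown.

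From these, peaks were selected by symbol, covered lengths were sums of merged intervals, and overlap meant at least 1 bp (Python 3.11.15; functions were tested on simulated data). A region was formed by merging touching or overlapping peaks of a gene over the lists of a mark, so the lists counted for it need not share a base. Gene models were GENCODE M21 (GRCm38). Members and lists were chosen with earlier results of these data known. All 9 genes were named; others by likeness to Prox1 or list counts. Alternatives were other peak classes, widths, positions, peak numbers, merging and overlap. A comparison list of pyramidal cell genes is not reported here.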

Additional observations from a re-analysis of the deposited data

Results flagged for a closer look

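Each gene and mark below had a share of its list's covered bases that was at least 1.5 times as high in the exercised as in the sedentary list of one arm and at least 1.5 times as low in another arm. The differences between arms were not tested, since each value comes from a single pair of lists.

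Calb1 H4K8ac had an exercised to sedentary ratio of shares of 1.88 in SIT and 1.51 in left, and of 0.407 in right, where the exercised list held 1 peak. Stxbp6 H4K8ac had ratios of 1.82 in SIT, 1.39 in left and 0.175 in right. Tdo2 H4K8ac went the other way, with 0.293 in SIT and 1.65 in right, and no exercised peak in left. C1ql2 H3K27me3 had 1.6 in SIT, 0.407 in left and 0.794 in right. All these ratios were taken by symbol. By position, C1ql2 H3K27me3 covered 6.06 kb in exercised SIT and 6.27 kb in sedentary SIT, although the exercised list was the longer. Its contrast between arms was then lost. Calb1 had no H4K8ac by position in either SIT list.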

How the results depend on the processing

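No paired analysis and no test were made because each peak list used here pools its libraries, and leave-one-out lists were not made for the same reason. Depth is unknown, so an absent peak is not shown to be an absent mark. Causes below were not tested.

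With promoter peaks only, the genes listed fell to 3 for H4K8ac in exercised SIT, sedentary SIT and sedentary right, 2 in exercised left and right, and for H3K27me3 to 0 in exercised right, 2 in sedentary SIT and 3 in sedentary right. Stxbp6 was then the 1 gene that lost H4K8ac in right, 2 gained H3K27me3 in SIT (Dock10, Stxbp6), 1 in left (Stxbp6), and 3 lost it in right (C1ql2, Dock10, Dsp). In all 6 lists stood 1 gene for H4K8ac (Neurod1) and 0 for H3K27me3, and 2 had both marks.

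With distal intergenic peaks left out, 5 genes had H4K8ac in sedentary SIT, 1 gained it in SIT (Prox1), and 2 lost H3K27me3 in right (C1ql2, Dock10). With the widest 50% of each list, 3 genes had H4K8ac in exercised right, 1 gained it (Prox1) and 1 lost it (Plk5) in SIT, 1 gained H3K27me3 in SIT and 1 in left (both Dock10), 2 lost it in right (Dock10, Dsp), and 2 had H4K8ac in all 6 lists (Calb1, Neurod1).

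With peaks assigned by position, 4 genes had H4K8ac in each SIT list, 5 in sedentary right, and 2 had H3K27me3 in exercised right. Then 1 lost H4K8ac in right (Prox1), 1 gained H3K27me3 in left (Stxbp6), 3 lost it in right (C1ql2, Dock10, Stxbp6), and 2 had it in all 6 lists (Dsp, Prox1).

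With at least 2 peaks per gene, H4K8ac was at 5 genes in each SIT list, 2 in exercised left and 1 in exercised right, H3K27me3 at 3 in sedentary SIT, and 0 genes had H4K8ac and 2 had H3K27me3 in all 6 lists. H4K8ac was gained at 1 (Prox1) and lost at 1 (Tdo2) in SIT, and lost at 5 in left and 5 in right. H3K27me3 was gained at 2 (C1ql2, Dock10) and lost at 1 (Dsp) in SIT, lost at 1 (Dsp) in left, and gained at 1 (Dsp) and lost at 2 (C1ql2, Dock10) in right.

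With equal numbers of peaks by width, H4K8ac was lost at 1 gene in SIT (Plk5), gained at 1 (C1ql2) and lost at 1 (Tdo2) in left, and lost at 1 in right (C1ql2), and H3K27me3 was lost at 0 in right. Without the exercised separate lists, 7 genes had H4K8ac in every remaining list. With a reciprocal overlap of 50%, 2 H4K8ac peaks overlapped H3K27me3 in place of 10. The other 98 recomputed counts stayed within 1.5 times the reported ones. Of 70 covered lengths recomputed by position, 38 moved by over 1.5 times, among them Prox1 H3K27me3 in exercised SIT (171 to 69.2 kb), Stxbp6 H3K27me3 in exercised right (38.1 to 0 kb), Neurod1 H4K8ac in sedentary SIT (5.38 to 9.2 kb), and all H4K8ac at C1ql2 and Plk5 (to 0 kb). The widest 50% of each list left 2 and 3 genes losing H4K8ac in left and right, but Prox1 was not among them.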
